A study of Mus musculus with 21 samples.

Results

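Activated muscle stem cells are cells of the myogenic lineage that have left quiescence without yet committing to differentiation. Here they were the cells to which the deposited per-cell tables gave the state Activated_MuSCs, 1 of 4 myogenic states that the authors assigned by position along a differentiation axis. This rule found 401 of 87822 cells (0.457%), or 18.3% of the 2189 cells with any myogenic state. The other states held 1285 quiescent MuSCs, 185 committed myoblasts and 318 fusing myocytes. All cells came from tibialis anterior muscle of female C57Bl/6J mice aged 20 months, with 1 mouse per sample and 21 mice in all. Mice were left uninjured (n = 4) or had the muscle injected with notexin, a toxin that destroys myofibers, and were sampled 1 (n = 4), 2 (n = 3), 3.5 (n = 4), 5 (n = 3) or 7 days post-injury (dpi, n = 3). Whole muscles were dissociated without sorting, so myofibers were largely lost and a myogenic cell was counted only if it survived the digestion. The data cannot separate fewer activated cells in a muscle from fewer that were recovered.

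In resting muscle, MuSCs lie quiescent beneath the basal lamina of the myofiber and express the transcription factor Pax7. After damage they enter the cell cycle and raise Myf5 and Myod1, the transcription factors that mark activation, and their progeny then express Myog as they commit, withdraw from the cycle and fuse into new fibers. A fraction of activated cells returns to quiescence and restores the stem cell pool. The tables used here hold totals per cell and not values of single genes, so the label was not checked against Myf5 and Myod1. What could be examined was how many activated cells each mouse held, which cluster labels they carried, and how their RNA content and its makeup varied.

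Summed over the cells of a mouse, ambient-corrected unique molecular identifiers (UMIs, 1 per captured transcript) numbered between 5602464 and 70730171. These totals depend on the number of cells, which was 974 in the lowest mouse and 6746 in the highest. Of the activated cells, 9 had a barcode that also occurred in another library, and 9 had fewer than the 750 genes given as the minimum in the study's methods. Requiring 1000 genes, 2000 UMIs and no more than 15% of UMIs from mitochondrial genes, called the stricter filter here, kept 324 activated cells (80.8%), compared with 75.5% of all cells.

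Few cells carried the activated label before 3.5 dpi. Of the 401 cells, 390 (97.3%) came from the 10 mice at 3.5, 5 and 7 dpi, and 6 of the 21 mice had none. Among uninjured mice, replicate B held 3 activated cells of 43 with a state and replicate C held 1 of 76. Uninjured replicates A and D held 0 of 26 and 0 of 5, which allow shares of up to 11.5% and 60%. All 4 mice at 1 dpi had 0 activated cells, among 7 to 11 cells with a state. These counts allow shares of up to 27.3% to 42.9% of cells with a state and up to 0.0662% to 0.251% of all cells. Both hold for cells with the label alone, since 94 of the 122 cells at 1 dpi and 147 of the 165 at 2 dpi that Harmony, the integration method behind the main cluster labels, called MuSCs or myoblasts/progenitors carried no state. The limits take 3 cells for a count of 0, and with the exact Clopper-Pearson 95% intervals given here they cover counting error only.

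At 2 dpi the 3 mice held 4, 1 and 2 activated cells, among 9, 4 and 7 cells with a state. The corresponding shares were 44.4% (95% interval 13.7 to 78.8), 25% (0.631 to 80.6) and 28.6% (3.67 to 71.0). The intervals of these 3 mice span most of the possible range, and activated cells were 0.0408% ± 0.0207 of all cells (SD, n = 3).

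At 3.5 dpi the 4 mice held 25, 26, 68 and 35 activated cells, or 31.25%, 29.2%, 22.4% and 20.1% of cells with a state. At 5 dpi the 3 mice held 45, 23 and 64, or 24.7%, 11.4% and 22.1%, with replicate B below every mouse at 3.5 dpi. At 7 dpi the counts were 43, 44 and 17, and the shares lay close together at 16.0%, 15.1% and 16.7%. The means were 25.7% ± 5.34 (SD, n = 4), 19.4% ± 7.04 (n = 3) and 15.9% ± 0.802 (n = 3), against 2.07% ± 3.33 (n = 4) in uninjured mice and 32.7% ± 10.4 (n = 3) at 2 dpi.

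**Figure D1:**
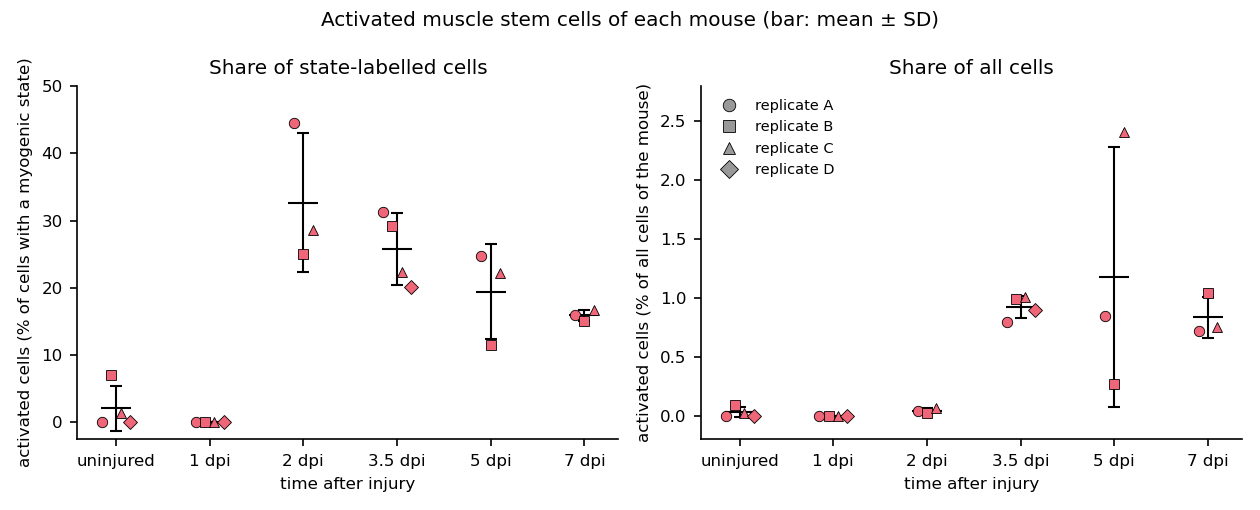
Activated muscle stem cells in each mouse as a percent of cells with a myogenic state (left) and of all cells (right), against the time after injury. Symbols are mice, with the shape giving the replicate letter, and bars are the mean ± SD. The left panel is highest at 2 dpi, where each mouse has 4 to 9 cells with a state, and the right panel stays near 0 until 3.5 dpi.

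The share of activated cells among cells with a state differed over the 6 time points (p = 1e-05, the smallest that 100000 resamples can give, permutation test of the F statistic on arcsine square root shares), with the largest difference from uninjured mice, 30.6 percentage points, at 2 dpi. That time point also had the highest percent without a state among cells that Harmony called MuSCs or myoblasts/progenitors. Of these cells, 85.4% ± 8.50 (SD, n = 3) had no state at 2 dpi and 71.1% ± 11.5 (n = 4) had none at 1 dpi. At 2 dpi, 146 of the 156 MuSC-labelled cells and 1 of the 9 progenitor-labelled cells had none. The percent without a state came to 21.2% ± 2.52 (n = 4), 17.4% ± 2.79 (n = 3) and 25.4% ± 7.48 (n = 3) at 3.5, 5 and 7 dpi. With all of these cells as the denominator, activated cells were 4.94% ± 2.66 at 2 dpi and 20.5% ± 4.70 at 3.5 dpi, and the largest difference from uninjured mice moved to 3.5 dpi, at 18.8 points (p = 1e-05, permutation test). The time of the highest share therefore depended on the denominator. Without the 3 mice at 2 dpi, the share of cells with a state still differed over time (p = 6e-05, permutation test, added after the data were seen), and the largest difference was 23.7 points at 3.5 dpi. After the stricter filter the 3 mice at 2 dpi kept 4 cells with a state between them and 2 mice at 1 dpi kept 0, and the test no longer passed (p = 0.0615, permutation test).

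As a share of all cells, activated cells rose from 0.0269% ± 0.0417 (SD, n = 4) in uninjured mice to 0.923% ± 0.0959 (n = 4), 1.18% ± 1.11 (n = 3) and 0.836% ± 0.175 (n = 3) at 3.5, 5 and 7 dpi. Each of the 10 mice at these times was above all 11 earlier mice. The change over time passed the threshold (adjusted p = 0.00015, permutation test over 25 labels). Most cell labels moved with injury, however, and 80% of the 25 labels passed the same test. The 4 mice at 3.5 dpi ranged from 0.798% to 1.01%, whereas the 3 at 5 dpi spread from 0.271% in replicate B through 0.846% in replicate A to 2.41% in replicate C. The exact 95% intervals of these mice at 5 dpi, 0.172 to 0.407, 0.618 to 1.13 and 1.86 to 3.07, cover counting error within each mouse. The 2 types of myonuclei, the nuclei of mature fibers, differed most from uninjured mice at 2 dpi for type IIb (-7.33 points) and at 3.5 dpi for type IIx (-3.97 points), without passing the threshold (adjusted p = 0.0579 and 0.0665, permutation test).

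Single pairs of time points were compared by exact permutation of the mice. None of the 15 pairs passed after Benjamini-Hochberg adjustment, whereas 6 had an unadjusted p under 0.05 at the smallest value their mice allow, 0.0286. Their adjusted p was 0.0714 (exact permutation test) although their p could not be lower, so the lack of a passing pair does not show equal shares. Between 3.5 and 7 dpi the shares of cells with a state did not overlap, with 20.1% as the lowest mouse at 3.5 dpi and 16.7% as the highest at 7 dpi, and the means differed by -9.83 points (p = 0.0571, adjusted p = 0.0952, exact permutation test). The difference between 3.5 and 5 dpi was -6.30 points (p = 0.257, exact permutation test), with overlapping mice. For 5 and 7 dpi the difference was -3.53 points (p = 0.4, exact permutation test), in a design of 3 against 3 mice that cannot go below 0.1.

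Among cells with a state, the number of activated cells per quiescent cell was lower after 3.5 dpi. Per 100 quiescent cells there were 114, 89.7, 52.3 and 53.8 activated cells in the 4 mice at 3.5 dpi, 43.3, 17.6 and 33.7 in the 3 mice at 5 dpi, and 22.9, 22.4 and 23.6 in the 3 mice at 7 dpi. Every mouse at 3.5 dpi was above every mouse at 5 and 7 dpi. On the log2 scale, with 0.5 cells added to both counts, the means were -0.45 ± 0.55 (SD, n = 4), -1.75 ± 0.66 (n = 3) and -2.10 ± 0.05 (n = 3), and the 3 times differed (p = 0.00667, exact permutation test of the F statistic). Leaving out any 1 of the 10 mice kept p between 0.00476 and 0.0246 in this exact permutation test. Cells without a state are in neither count. Of the cells that Harmony called MuSCs, 168 of 402, 96 of 543 and 85 of 563 had no state at 3.5, 5 and 7 dpi. Of its myoblasts/progenitors, 15 of 426, 44 of 261 and 113 of 282 had none. Quiescent cells mostly carried the MuSC label and activated cells the progenitor label, and the part of these cells in the ratio was not tested.

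**Figure D2:**
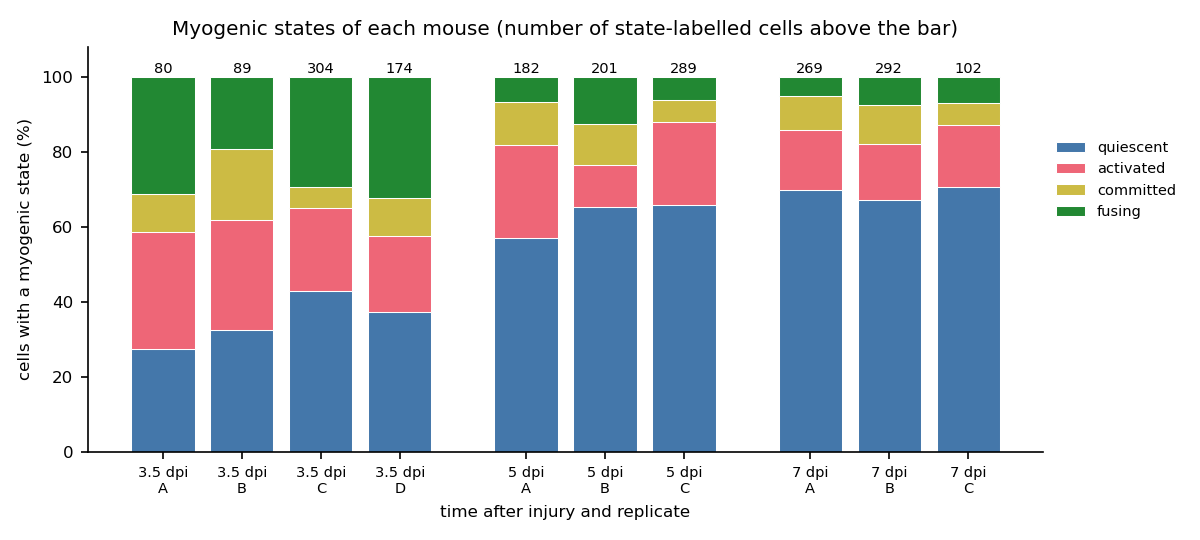
Makeup of the cells with a myogenic state in each mouse at 3.5, 5 and 7 dpi, in percent, with the number of cells above each bar. Quiescent cells (blue) take 27.5% to 42.8% of the bar at 3.5 dpi and 67.1% to 70.6% at 7 dpi, while activated cells (red) take 11.4% to 31.25% over the 10 mice.

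The other states gave the frame for this change. Quiescent MuSCs made up 35.1% ± 6.53 (SD, n = 4), 62.7% ± 4.81 (n = 3) and 69.2% ± 1.83 (n = 3) of cells with a state at 3.5, 5 and 7 dpi. Fusing myocytes, which join each other and existing fibers, stood at 28.0% ± 6.02, 8.42% ± 3.48 and 6.53% ± 1.20 at the same times. Committed myoblasts, the cells between activation and fusion, stood at 11.3% ± 5.66, 9.46% ± 3.11 and 8.36% ± 2.25. Since the 4 shares sum to the whole, they are not independent of one another, and of the 4 only the activated share was tested.

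The cluster labels of activated cells also shifted. Harmony placed 311 of the 401 cells among myoblasts/progenitors and 90 among MuSCs, and no other Harmony label occurred. Activated cells were 31.4% of all cells with the progenitor label and 4.61% of those with the MuSC label. BBKNN called 397 of the 401 cells committed progenitors, and Scanorama called 400 of them so. In name this label goes against the activated state, which the authors placed before their committed state. At 3.5, 5 and 7 dpi both methods gave all 390 activated cells this single label, so they did not separate the MuSC-labelled from the progenitor-labelled cells.

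In the 4 mice at 3.5 dpi, 3 of 25, 1 of 26, 4 of 68 and 4 of 35 activated cells carried the MuSC label, or 12%, 3.85%, 5.88% and 11.4%. At 5 dpi the label was carried by 8 of 45, 9 of 23 and 22 of 64 cells, or 17.8%, 39.1% and 34.4%. At 7 dpi it was carried by 10 of 43, 17 of 44 and 6 of 17 cells, or 23.3%, 38.6% and 35.3%. All 6 later mice were above the 4 mice at 3.5 dpi. The means were 8.29% ± 4.05 (SD, n = 4), 30.4% ± 11.2 (n = 3) and 32.4% ± 8.09 (n = 3), and the 3 times differed (p = 0.00905, exact permutation test of the F statistic), by 24.1 points between 3.5 and 7 dpi. The state and the cluster label were both derived from the Harmony values of the same cells, so they are 2 calls on 1 embedding and not separate measurements. The share also covers cells with a state only. Progenitor-labelled cells without a state went from 15 of 426 at 3.5 dpi to 113 of 282 at 7 dpi. MuSC-labelled cells without a state went from 168 of 402 to 85 of 563. The part of these cells in the shift was not tested. Before 3.5 dpi, all 4 activated cells of uninjured mice had the MuSC label, and at 2 dpi 2 of the 7 had it.

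**Figure D3:**
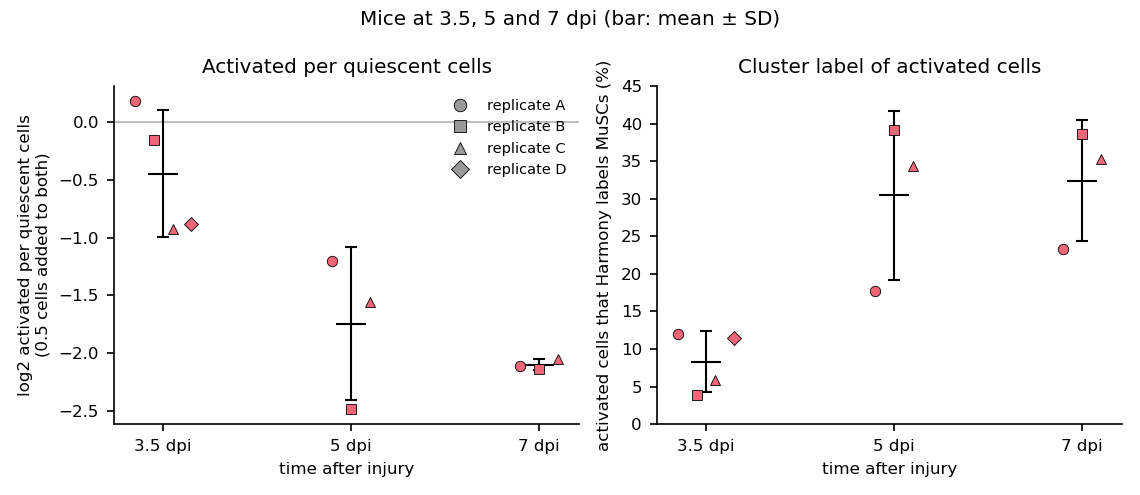
Activated per quiescent cells on a log2 scale (left) and the percent of activated cells with the Harmony label MuSCs (right) in each mouse at 3.5, 5 and 7 dpi. Symbols are mice and bars the mean ± SD. In both panels the 4 mice at 3.5 dpi are separated from the 6 later mice.

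Individual activated cells varied widely in RNA content. Over the 401 cells the median was 15020 UMIs and 3841 genes per cell, the middle 50% lay between 9650 and 22746 UMIs, and the extremes were 1020 and 93073 UMIs. The median mitochondrial share was 9.97% of UMIs, and 5 cells, all at 3.5 dpi, had none. The 7 cells at 2 dpi had a median of 1641 UMIs and 904 genes, and the 4 cells of uninjured mice 4231 UMIs and 1264.5 genes with 23.1% mitochondrial UMIs. These 11 early cells were too few for a comparison of medians between mice, so what follows is restricted to the 10 mice at 3.5, 5 and 7 dpi, each with 17 to 68 activated cells.

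At 3.5 dpi the median activated cell held 26523.5, 31167, 21002 and 21444 UMIs in replicates A to D. At 5 dpi the medians were 13551, 5195 and 17754 UMIs in replicates A to C, and at 7 dpi 6841, 11487 and 14332 UMIs. The 4 mice at 3.5 dpi were therefore above the 6 later mice. The geometric means over mice were 24702, 10772 and 10404.5 UMIs at the 3 times, 2.29 and 2.37 times higher at 3.5 than at 5 and 7 dpi, but the test over all labels and measures was not passed (adjusted p = 0.166, exact permutation test of the F statistic on log2 UMIs). Genes per cell followed the same order, with geometric means of 4818, 3080 and 3070 (adjusted p = 0.197, same exact permutation test). The difference in genes between 7 and 3.5 dpi was -0.65 on the log2 scale, and -0.726 to -0.520 with 1 mouse left out. At a fixed number of 15020 UMIs it turned to 0.09, so its direction depended on whether UMIs were held fixed.

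Whole-library values moved in the same direction. The median UMIs over all cells of a mouse averaged 12086, 6720 and 5982 at the 3 times, and 18 of the 24 other labels also had fewer UMIs at 7 than at 3.5 dpi. Sequencing saturation averaged 41.1%, 44.8% and 57.1% and the reads assigned to cells 94.6%, 83.3% and 71.6% at the 3 times, and the part of these in the result was not tested. Within its own mouse, the activated state ranked 3 of 25 labels by median UMIs in all 4 mice at 3.5 dpi. It ranked 3, 12 and 4 at 5 dpi and 9, 4 and 2 at 7 dpi. The rank of 12 belonged to 5 dpi replicate B, whose activated cells had 1.02 times the median UMIs of all its cells, compared with 1.31 to 2.46 times in the other 9 mice.

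Beyond its amount, the makeup of the RNA was examined by gene class. Of the 14 measures taken per cell (UMIs, genes, 11 shares of UMIs from gene classes, and a doublet score), 4 differed in activated cells over 3.5, 5 and 7 dpi at an adjusted p under 0.05, or 28.6%, against 14.9% of all 296 tests of measures and labels. The 4 were the shares of transcription factor, long intergenic noncoding RNA (lincRNA) and protein-coding transcripts and the doublet score. In quiescent MuSCs the same 4 passed (adjusted p = 0.0141, 0.0322, 0.0318 and 0.0223, exact permutation test of the F statistic). An unadjusted p under 0.05 was likewise reached by 4 in activated cells.

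Transcripts of transcription factors, the DNA-binding proteins that direct cell identity, took 2.45%, 2.54%, 2.83% and 2.53% of UMIs in the median activated cell of the 4 mice at 3.5 dpi. They took 3.32%, 3.43% and 3.94% at 5 dpi and 4.96%, 4.10% and 3.69% at 7 dpi. No mouse at 3.5 dpi reached any later mouse. The mean rose from 2.59% ± 0.168 (SD, n = 4) to 3.56% ± 0.329 (n = 3) and 4.25% ± 0.651 (n = 3; adjusted p = 0.0256, exact permutation test of the F statistic).

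LincRNAs, which are transcribed between protein-coding genes and do not encode proteins, took 0.570%, 0.568%, 0.579% and 0.454% of UMIs at 3.5 dpi. They took 1.52%, 1.38% and 2.05% at 5 dpi and 1.45%, 1.39% and 1.75% at 7 dpi. The means were 0.543% ± 0.0592 (n = 4), 1.65% ± 0.353 (n = 3) and 1.53% ± 0.194 (n = 3; adjusted p = 0.0318, exact permutation test of the F statistic). The larger difference between neighbouring times was that from 3.5 to 5 dpi. As a single pair it had p = 0.0286, the smallest its mice allow, and did not pass (adjusted p = 0.1, exact permutation test).

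Protein-coding transcripts fell as lincRNAs rose. Their share was 93.6%, 93.0%, 94.1% and 94.6% at 3.5 dpi, 91.3%, 88.9% and 91.3% at 5 dpi, and 91.4%, 91.4% and 89.6% at 7 dpi. The means were 93.8% ± 0.701 (n = 4), 90.5% ± 1.41 (n = 3) and 90.8% ± 1.04 (n = 3; adjusted p = 0.0481, exact permutation test of the F statistic).

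The doublet score, the fraction of a cell's nearest neighbours that are artificial doublets, averaged 0.335, 0.274 and 0.118 in activated cells at 3.5, 5 and 7 dpi (adjusted p = 0.0256, exact permutation test of the F statistic). The median over all cells of a mouse was 0.190 to 0.205 at 3.5 dpi and 0.0645 to 0.126 at 7 dpi, and doublets had been removed by the authors before deposit. In 9 of the 10 mice the activated cells scored above that median, and in 7 dpi replicate C both were 0.0645. The authors scored each dataset individually, so values of different mice may not share 1 scale. The score was also lower at 7 than at 3.5 dpi in 21 of the 24 other labels, 4 of which passed the threshold. The difference was -0.249 in quiescent and -0.216 in activated cells.

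**Figure D4:**
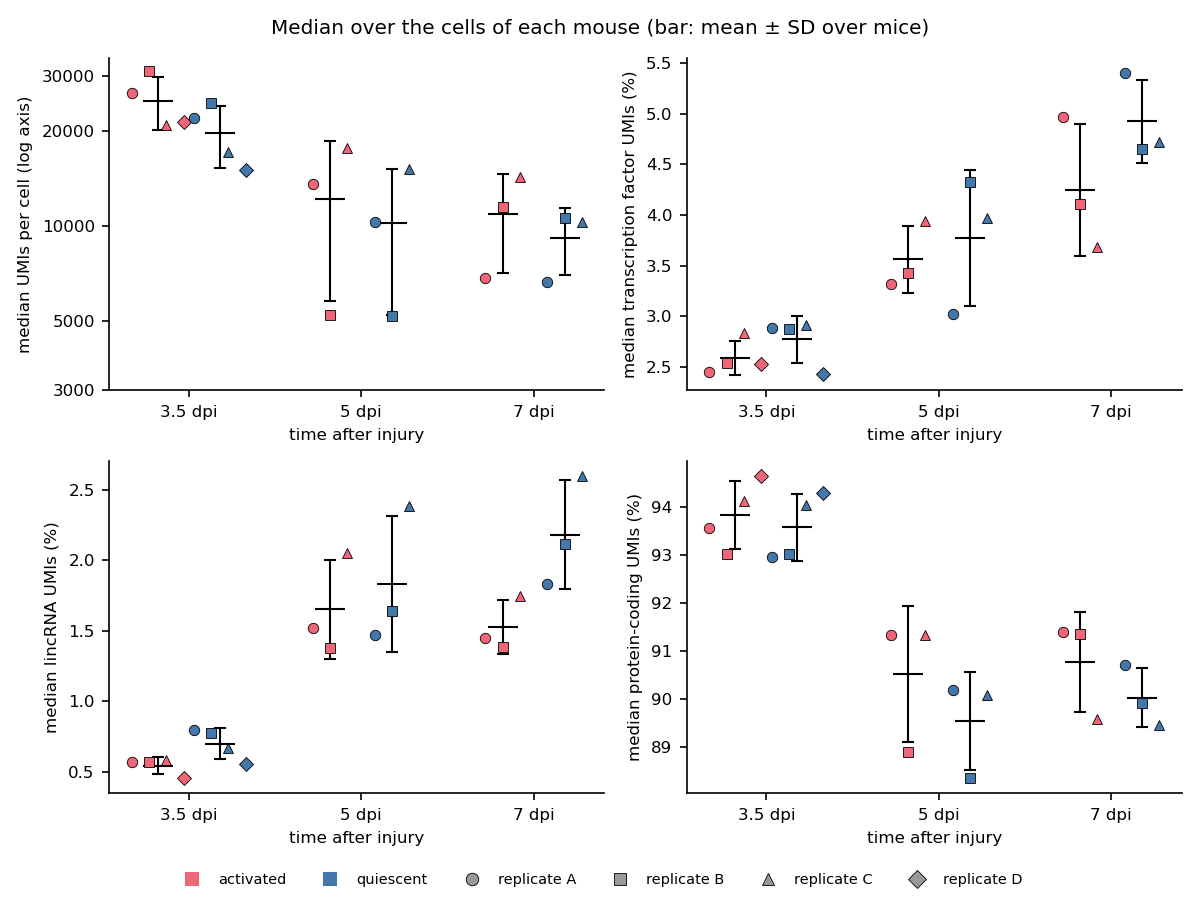
Median UMIs per cell (log axis) and median percent of UMIs from transcription factor, lincRNA and protein-coding genes in activated (red) and quiescent (blue) cells of each mouse at 3.5, 5 and 7 dpi. Symbols are mice and bars the mean ± SD, and vertical axes do not start at 0. Activated cells at 3.5 dpi are separated from those at 5 and 7 dpi in all 4 panels, and quiescent cells are displaced in the same direction.

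The 4 calls depended on the number of mice. With any of the 4 mice at 3.5 dpi left out, where the smallest p the design allows rises from 0.000476 to 0.00357, 0 of the 14 measures passed. The transcription factor share then had an adjusted p of 0.081 to 0.105, and it kept its call without each of the 6 later mice. The lincRNA share kept its call without 5 dpi replicate A or B and lost it without each other mouse (adjusted p from 0.0521 to 0.140), the doublet score lost it without any mouse at 3.5 dpi and without 5 dpi replicate A or C (0.0521 to 0.109), and the protein-coding share lost it without each of the 10 mice (0.0508 to 0.120, all exact permutation tests). Their differences between 7 and 3.5 dpi kept their direction in each case. Between 3.5 dpi and both later times together, 5 of the 14 measures did not overlap in activated cells (UMIs, genes, transcription factor, lincRNA and protein-coding), compared with 20.6% of all tests of measures and labels.

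The 3 other gene classes followed throughout did not pass the threshold over the 3 times in exact permutation tests of the F statistic. Mitochondrial transcripts took 10.6% ± 0.859, 10.9% ± 3.21 and 10.3% ± 0.709 of UMIs at 3.5, 5 and 7 dpi (adjusted p = 0.994, exact permutation test), with 14.5% in 5 dpi replicate B as the highest mouse. Ribosomal protein transcripts, which encode the protein part of the ribosome, took 19.5% ± 0.995, 21.9% ± 0.904 and 22.0% ± 3.36 (adjusted p = 0.398, exact permutation test). The 3 mice at 7 dpi differed widely in that class, at 18.4%, 22.8% and 24.9%, and without replicate A at 7 dpi it passed the threshold (adjusted p = 0.0371, exact permutation test) with a difference of 4.35 points between 7 and 3.5 dpi. Heat shock transcripts, which encode protein-folding chaperones and also respond to dissociation, took 1.25% ± 0.0448, 1.03% ± 0.193 and 1.17% ± 0.317 (adjusted p = 0.677, exact permutation test, SD over 4, 3 and 3 mice).

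The changes in RNA makeup were shared with other cells of the same mice. The transcription factor share was higher at 7 than at 3.5 dpi in 22 of the 24 other labels, 7 of which passed the threshold, and 1 of the 24 had a larger rise than the 1.67 points of activated cells. The lincRNA share was higher in 23 of the 24, with 2 called and 2 of larger rise, and the protein-coding share was lower in all 24, with 12 called. In quiescent MuSCs the transcription factor share averaged 2.77%, 3.77% and 4.93% and the lincRNA share 0.698%, 1.83% and 2.18% at the 3 times. The label with the largest rise in each of these shares was quiescent MuSCs, at 2.15 and 1.48 points. The ribosomal protein share went the other way in most labels, since it was lower at 7 dpi in 18 of the 24. In the 3 earlier myogenic states it was higher at 7 than at 3.5 dpi, by 2.08 points in quiescent, 2.51 in activated and 4.27 in committed cells, and none of these passed the threshold (adjusted p = 0.547, 0.398 and 0.0669, exact permutation test).

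Whether activated cells moved otherwise than quiescent cells was tested on the difference between both states within each mouse. None of the 14 measures passed after adjustment (exact permutation test of the F statistic), against 16.1% of the same tests in the other labels, and 1 had an unadjusted p under 0.05. This was the lincRNA share, where activated minus quiescent cells averaged -0.155, -0.180 and -0.655 points at 3.5, 5 and 7 dpi (p = 0.0162, adjusted p = 0.227, exact permutation test).

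Within a mouse, activated cells lay between quiescent and committed cells in RNA content. These comparisons carry no test, since the states were assigned from the transcripts of the same cells. Activated cells had more UMIs than quiescent cells in 10 of 10 mice, by 0.27 ± 0.17 on the log2 scale (SD, n = 10), a factor of 1.20, and more genes in 9 of 10. They had fewer UMIs than committed myoblasts in 8 of 10 mice, with a mean difference of -0.44 ± 0.48. Against fusing myocytes the sign varied, with fewer UMIs in 7 of 10 mice.

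In RNA makeup, activated cells differed from quiescent cells by a lower lincRNA share in 9 of 10 mice (-0.31 ± 0.28 points), a lower transcription factor share in 8 of 10 (-0.34 ± 0.42 points) and a higher protein-coding share in 10 of 10 (0.62 ± 0.51 points). Heat shock transcripts were higher than in quiescent cells in 9 of 10 mice and lower than in committed myoblasts in 9 of 10. The ribosomal protein share was lower than in quiescent cells in 8 of 10 mice (-0.62 ± 0.63 points). It was higher than in fusing myocytes in 10 of 10, by 4.14 ± 3.49 points with a range of 0.308 to 10.8. The gap was not the same at all times, since activated cells averaged 19.5%, 21.9% and 22.0% and fusing cells 18.5%, 17.3% and 14.2% at 3.5, 5 and 7 dpi. Fusing cells were fewest and shallowest in 7 dpi replicate C, with 7 cells and a median of 2345 UMIs. Antisense transcripts were higher than in fusing myocytes in 10 of 10 mice and higher than in committed myoblasts in 9 of 10.

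**Figure D5:**
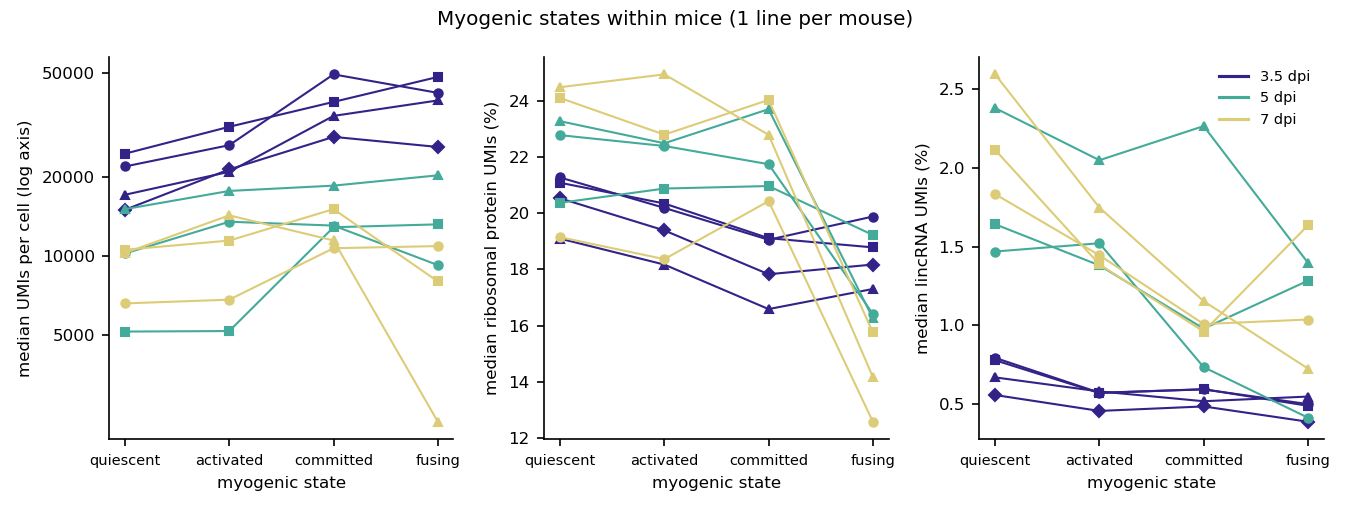
Median UMIs per cell (log axis) and median percent of UMIs from ribosomal protein and lincRNA genes in the 4 myogenic states, with 1 line per mouse coloured by time after injury and shaped by replicate letter. UMIs rise from quiescent to activated cells in all 10 mice, the ribosomal protein share is lowest at the fusing state in the 6 mice at 5 and 7 dpi, and the lincRNA share is lowest at 3.5 dpi in the quiescent, activated and committed states.

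Activated cells with the MuSC label and those with the progenitor label could be compared in the 6 mice that held at least 5 of each, all at 5 and 7 dpi. The MuSC-labelled cells had a higher ribosomal protein share in 5 of 6 mice, with means of 23.1% and 21.6%, and a higher lincRNA share in 5 of 6, with means of 1.73% and 1.51%. Their protein-coding share was lower in 5 of 6 mice, at 90.1% against 90.9%. UMIs were lower in 4 of 6 mice, and the transcription factor share was higher in 4 of 6, at 3.89% against 3.82%. These differences are described and not tested, for the same reason as those between states.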

How the data were processed

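Single-cell RNA sequencing of 21 muscles used the 10x Chromium v3 kit. Before deposit, the authors aligned reads to mm10 with Cell Ranger 3.1.0, subtracted ambient RNA with SoupX, filtered cells in Seurat (3.1.5 in the submitters' processing notes), removed doublets with DoubletFinder, and integrated these with other samples. The deposited UMIs per cell are expected counts, not whole after SoupX and not normalized. The authors' mean reads and barcodes per sample are counts from Cell Ranger. The deposited percent values are shares of a cell's UMIs from a gene class, or library summaries. Ambient contamination per sample (SoupX) and the doublet score per cell (DoubletFinder) were deposited as fractions. Genes per cell are a number the authors deposited beside these. The states were cut by the authors from PHATE coordinates of Harmony values. Values of single genes were not used here.

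Cells were counted and summarised as medians per mouse (at least 5 cells) in Python (3.11.15) using pandas (2.3.3), numpy (2.4.6), scipy (1.17.1) and, for figures, matplotlib (3.10.9). The mouse was the unit. Shares were tested by permuting the F statistic (100000 resamples, or all 4200 arrangements of 4, 3 and 3 mice), pairs by two-sided exact permutation, with Benjamini-Hochberg adjustment at 0.05 over 25 labels, 15 pairs, 296 measures of labels or 14 differences between states. Genes at a fixed number of UMIs came from a polynomial of degree 3 per mouse. The permutation tests of the F statistic, without a block for the replicate letter, and of pairs were run on simulated data first. The text names the myogenic states, both types of myonuclei, UMIs, genes, 4 fixed gene classes and other measures past the threshold, and further classes in the comparisons of states. The members and lists were chosen with earlier results of these data known.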

Additional observations from a re-analysis of the deposited data

Results flagged for a closer look

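Of 20 groups of 4 mice examined for a sample far from the rest, 2 held one, where chance alone flags about 1 in 20. The median lincRNA share of activated cells was 0.454% in 3.5 dpi replicate D, against 0.568% to 0.579% in the other 3 mice of that time, a gap of 0.917 of the group's range. The median snoRNA share was 0.00335% in 3.5 dpi replicate B and 0 in the other 3 mice. Of the 401 activated cells, 48.9% had any snoRNA transcript, so the median of a mouse lies near the step from 0 to the first transcript.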

How the results depend on the processing

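The share of all cells kept its call under every alternative run (untransformed shares, stricter filter, replicate block, non-immune denominator, centred log ratio, each of 21 mice left out). The share of cells with a state lost it under the stricter filter alone (58.3 points at 2 dpi, p = 0.0615, permutation test), which left few cells before 3.5 dpi. Mice of the same replicate letter showed no consistent pairing (19 of 48 same-letter pairs had a correlation of deviations above 0.1, median -0.00724). The correlations ranged from -0.799 to 0.766 and cannot tell whether such mice were collected together, which the labels do not say. With the replicate block, exact permutation gave p = 0.0926 for the log2 ratio to quiescent cells (-1.66 between 7 and 3.5 dpi) and for the MuSC-labelled share (24.1 points), and 0 of 14 measures passed in place of 4. It changed no other call of a whole comparison. Leaving out 1 mouse gave 0 to 3 measures passed, with 0 to 2 in 8 of the 10 cases. The protein-coding share also lost its call with at least 10 cells per mouse (adjusted p = 0.0527) and with genes at fixed UMIs (0.0503), both exact permutation tests in a changed family of tests. Directions between 7 and 3.5 dpi turned for genes at fixed UMIs (0.0861 on the log2 scale), for mitochondrial transcripts with means over cells (0.652 points) or without 7 dpi replicate B (0.0389, with -0.670 to 0.0389 over the 10 cases), and for heat shock transcripts without 7 dpi replicate C (0.102, from -0.175). None of these 3 measures was called, and the cause was not tested. The MuSC-labelled share with BBKNN or Scanorama labels was not run, since all cells shared 1 label, nor were medians at further times, which lacked cells. The number of cells with a state, 4 to 76 per mouse, limits shares before 3.5 dpi.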
